A study of Mus musculus with 8 samples.

Results

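The unfolded protein response and the machinery that folds proteins in the endoplasmic reticulum (ER) were followed through 32 genes in mouse granulosa cells lacking PGR-A, a progesterone receptor isoform, and in wild-type cells. The 32 genes were taken from the table by symbol, out of 51886 symbols. All 32 were found, and 31 had at least 1 TPM, the share of all transcripts corrected for transcript length and scaled to a fixed total, in at least 4 of the 8 libraries and entered the test, while Chac1 did not. The PGR-A KO group held 4 libraries from knockout mice of the PGR-A KO strain, and the WT group held 4 libraries from wild-type mice of the same strain. All mice, 21 to 27 days old, received 5 IU of eCG, a gonadotropin that makes follicles grow, and 46 h later 5 IU of hCG, which stands in for the luteinizing hormone surge. Granulosa cells were taken 8 h after hCG, and each library pooled cells from 2 to 3 mice. How the knockout allele was built is not given in the sources used here.

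Secreted and membrane proteins enter the ER through the translocon and are folded there by chaperones, lectins and disulfide isomerases. When unfolded proteins build up, the sensors IRE1, PERK and ATF6 signal to the nucleus through XBP1, ATF4 and cleaved ATF6, which raise chaperone genes and genes for the removal of misfolded proteins. Granulosa cells secrete hormones, growth factors and the matrix in which the cumulus expands before ovulation.

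Some of the genes share short sequences in their promoters. The genes were chosen as members of this response, and the motifs searched are known sites of its factors. A share above that of all promoters is therefore not an independent result about the set. RefSeq promoters of GRCm38.p6, from 250 bases before the annotated start to 50 after it, were held for 28 of the 32 genes, with none for Atf6, Manf, Hyou1 and Derl1. The ER stress response element (ERSE), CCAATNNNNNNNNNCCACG on either strand, is bound by the factor NF-Y at its first part and by ATF6 or XBP1 at its last. It stood in 9 of the 28 promoters (32.1%), against 39 of all 32851 promoters in the table (0.119%). The elements of these 9 genes are shown here in the direction of the motif, with the fixed bases in capitals, because they are the sequence feature held by the most genes of the set.
Hspa5, chr2:34772025-34772043: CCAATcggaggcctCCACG
Hsp90b1, chr10:86705638-86705656: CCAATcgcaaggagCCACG
Hsp90b1, second element, chr10:86705533-86705551: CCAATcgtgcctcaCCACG
Dnajc3, chr14:118937827-118937845: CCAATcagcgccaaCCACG
Creld2, chr15:88819520-88819538: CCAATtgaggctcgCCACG
Calr, chr8:84847075-84847093: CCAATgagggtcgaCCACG
Canx, chr11:50325800-50325818: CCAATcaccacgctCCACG
Pdia6, chr12:17266491-17266509: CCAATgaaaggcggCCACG
Syvn1, chr19:6046532-6046550: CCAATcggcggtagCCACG
Derl3, chr10:75893242-75893260: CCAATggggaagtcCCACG
Hsp90b1 was the member with a pair of elements, while the other 8 genes held a single match each.

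A second form, ERSE-II, ATTGGNCCACG on either strand, stood in 2 of the 28 promoters (7.14%), those of Herpud1 and Dnajb11, against 12 of all promoters (0.0365%). Its last bases, CCACG, are also the last bases of ERSE. The amino acid response element, searched as TGATGNAA on either strand and known as a site of ATF4 with its partners, stood in 4 of the 28 (14.3%), those of Chac1, Trib3, Asns and Herpud1, against 1304 of all promoters (3.97%). The XBP1 site TGACGTGG was found in 0 of the 28, against 222 of all promoters (0.676%). No match says only that these letters are not in this window. Whole promoters are printed for the most abundant gene, the tested gene of the set that varied most between libraries and the gene with the lowest p, each on its gene's strand, which is plus for all 3, with motif matches in capitals.
Hspa5, chr2:34771840-34772139: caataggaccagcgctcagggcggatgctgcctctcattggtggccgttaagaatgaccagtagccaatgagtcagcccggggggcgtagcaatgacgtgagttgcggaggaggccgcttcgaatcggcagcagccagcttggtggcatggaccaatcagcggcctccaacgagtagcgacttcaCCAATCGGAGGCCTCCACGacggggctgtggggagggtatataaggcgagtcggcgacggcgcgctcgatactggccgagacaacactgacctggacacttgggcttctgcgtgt
Derl3, chr10:75893148-75893447: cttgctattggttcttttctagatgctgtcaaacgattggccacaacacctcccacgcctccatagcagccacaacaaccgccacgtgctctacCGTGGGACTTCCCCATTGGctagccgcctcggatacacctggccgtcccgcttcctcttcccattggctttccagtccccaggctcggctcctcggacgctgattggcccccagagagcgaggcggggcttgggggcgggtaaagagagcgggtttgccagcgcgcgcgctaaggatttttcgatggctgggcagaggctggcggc
Herpud1, chr8:94386179-94386478: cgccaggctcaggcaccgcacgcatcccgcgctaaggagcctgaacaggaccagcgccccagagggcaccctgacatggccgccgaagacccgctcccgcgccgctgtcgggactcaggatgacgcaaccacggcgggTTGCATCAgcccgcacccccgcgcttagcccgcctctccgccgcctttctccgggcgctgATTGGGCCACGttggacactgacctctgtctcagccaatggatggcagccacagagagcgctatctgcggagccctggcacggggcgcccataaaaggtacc
In the Derl3 promoter the element lies on the opposite strand, so it reads as the reverse complement of the motif. The Herpud1 promoter holds both an amino acid response element, on the opposite strand, and an ERSE-II nearer the start.

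The libraries resembled each other, with correlations of 0.970 to 0.991 on the log2 scale, and none held identical values. Library depth cannot be read from TPM and is unknown. The granulosa genes Inha and Foxl2 were present in every library, Inha at 2994 to 4143 TPM in PGR-A KO and 3435 to 4645 TPM in WT, and Foxl2 at 34.9 to 47.4 TPM in PGR-A KO and 37.0 to 60.4 TPM in WT. The targeted gene, Pgr, had 3.21, 3.52, 2.01 and 3.08 TPM in PGR-A KO and 1.56, 0.878, 1.41 and 0.756 TPM in WT, and this gene-level value cannot separate the receptor isoforms, so it does not check the labels. Nothing in the labels says that replicate numbers mark shared animals or days. All p-values therefore rest on differences among mouse pools. Leaving out PGR-A KO replicate 3, together with WT replicate 1, gave 1131 genes past the threshold over the whole table. With all 8 libraries there were 2. That pair was chosen with the data known, so the larger count is described and not called. In bulk libraries such as these, fewer cells of a type and less RNA per cell cannot be told apart.

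Levels differed widely among the 32 genes. Hspa5 was the most abundant of them, with a mean of 1158 TPM over the 8 libraries, rank 89 among all symbols, and Chac1 the least abundant, with 0.759 TPM, rank 15255. Below Hspa5 came Hsp90b1, Calr, Pdia3, P4hb, Manf, Pdia4, Pdia6 and Canx, whose ranks ran from 125 to 303. The 3 sensors and the factor Ddit3 were far lower, with ranks between 3122 and 7289. The stress targets Trib3, at rank 14222, and Chac1 were near or under 1 TPM. Neighbours in this order mostly overlapped between libraries. Hsp90b1 and Calr, for example, had 828 to 999 TPM and 834 to 1094 TPM over all libraries.

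**Figure D1:**
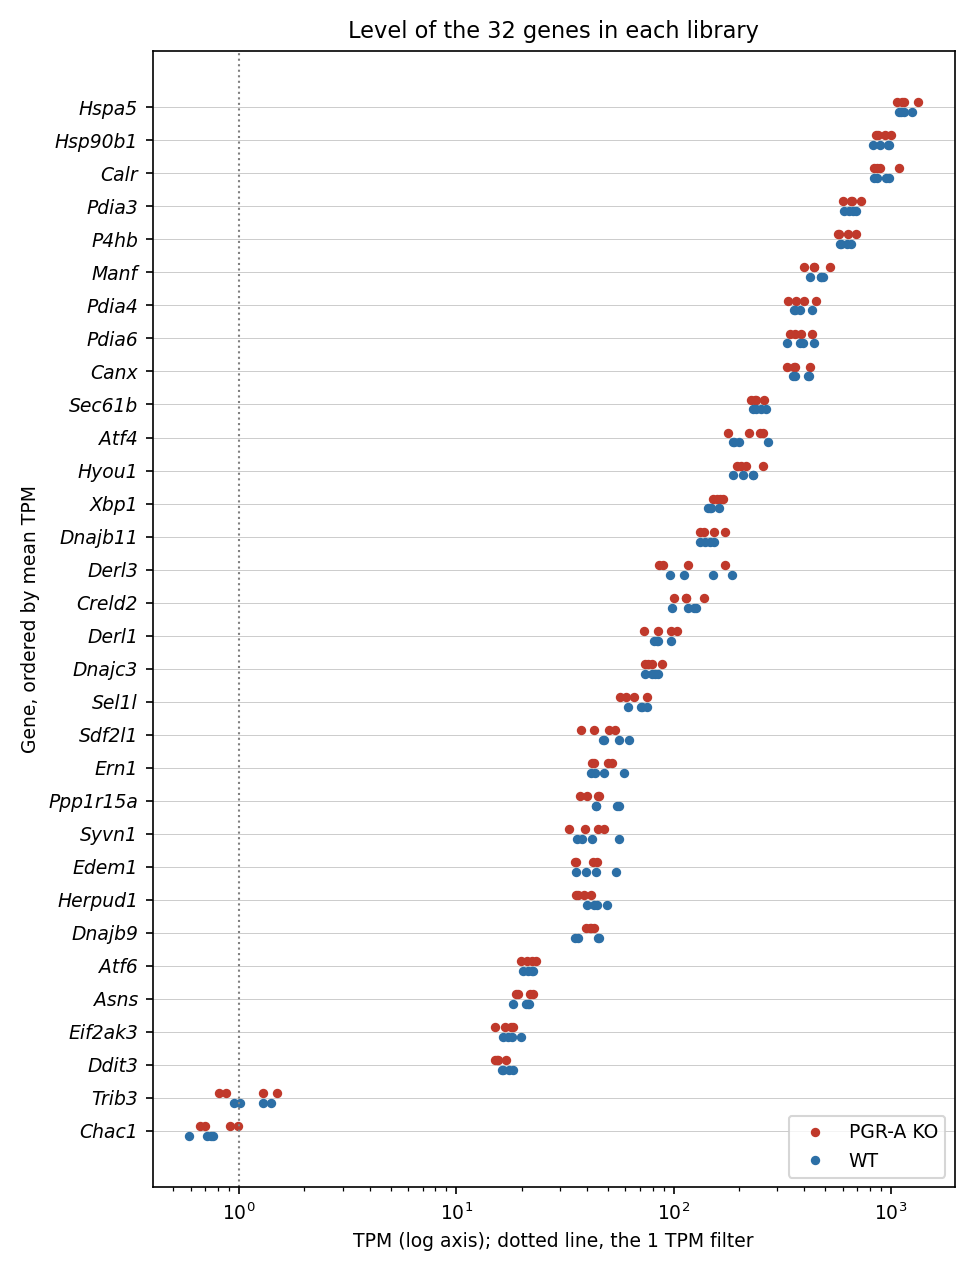
TPM of each of the 32 genes (rows, ordered by mean) in the 4 PGR-A KO libraries (red, upper points) and the 4 WT libraries (blue, lower points) on a log axis. Points of both genotypes overlap in every row, from Hspa5 at 1068 to 1336 TPM to Trib3 and Chac1 near the dotted line at 1 TPM.

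Together the 32 genes made up 0.765%, 0.874%, 0.746% and 0.712% of all TPM in PGR-A KO libraries, and 0.774%, 0.760%, 0.821% and 0.747% in WT libraries. The means were 0.774% ± 0.0701 in PGR-A KO and 0.776% ± 0.0325 in WT (SD, n = 4 each). The highest and the lowest share both belonged to the knockout, so its range enclosed that of the wild type.

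None of the 31 tested genes differed between genotypes past an adjusted p of 0.05 in limma, where 2 of all 14472 genes tested did (0.0138%). At an unadjusted p under 0.05, 1 of the 31 passed, Herpud1, lower in PGR-A KO, against 6.31% of all genes tested, of which 5.33% were lower and 0.974% higher. The libraries of the genotypes overlapped in all 32 genes, so 0 were separated, against 3.42% of all genes tested. The mean was higher in PGR-A KO for 14 of the 31 and lower for 17, and 45.2% higher compares with 42.6% of all genes tested. On the log2(TPM + 1) scale the median of the differences, taken as PGR-A KO minus WT, was -0.014 over the 31 genes and -0.023 over all genes tested. TMM scaling put 17 of the 31 genes higher (54.8%, against 50.8% of all genes), and quantile normalization 18 (58.1%, against 54.4%). Without PGR-A KO replicate 2 only 3 of the 31 (9.68%) were higher, against 35.2% of all genes, and without WT replicate 4 there were 9 (29.0%), against 40.1% of all genes.

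The precision allows bounds on how large an undetected difference could be. The 95% confidence interval of the difference lay within 0.5 log2 units of 0 on both sides for 29 of the 31 genes, all but Sdf2l1 and Derl3, and within 0.3 for 22. The interval held 0 for 30 genes, all but Herpud1. To either side the interval reached a median of 0.22 log2 units for the 31 genes and 0.26 for all genes tested. These intervals are per gene and are not adjusted for the number of genes. They are on the log2(TPM + 1) scale, which understates differences of low genes such as Trib3, at a mean of 1.14 TPM.

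**Figure D2:**
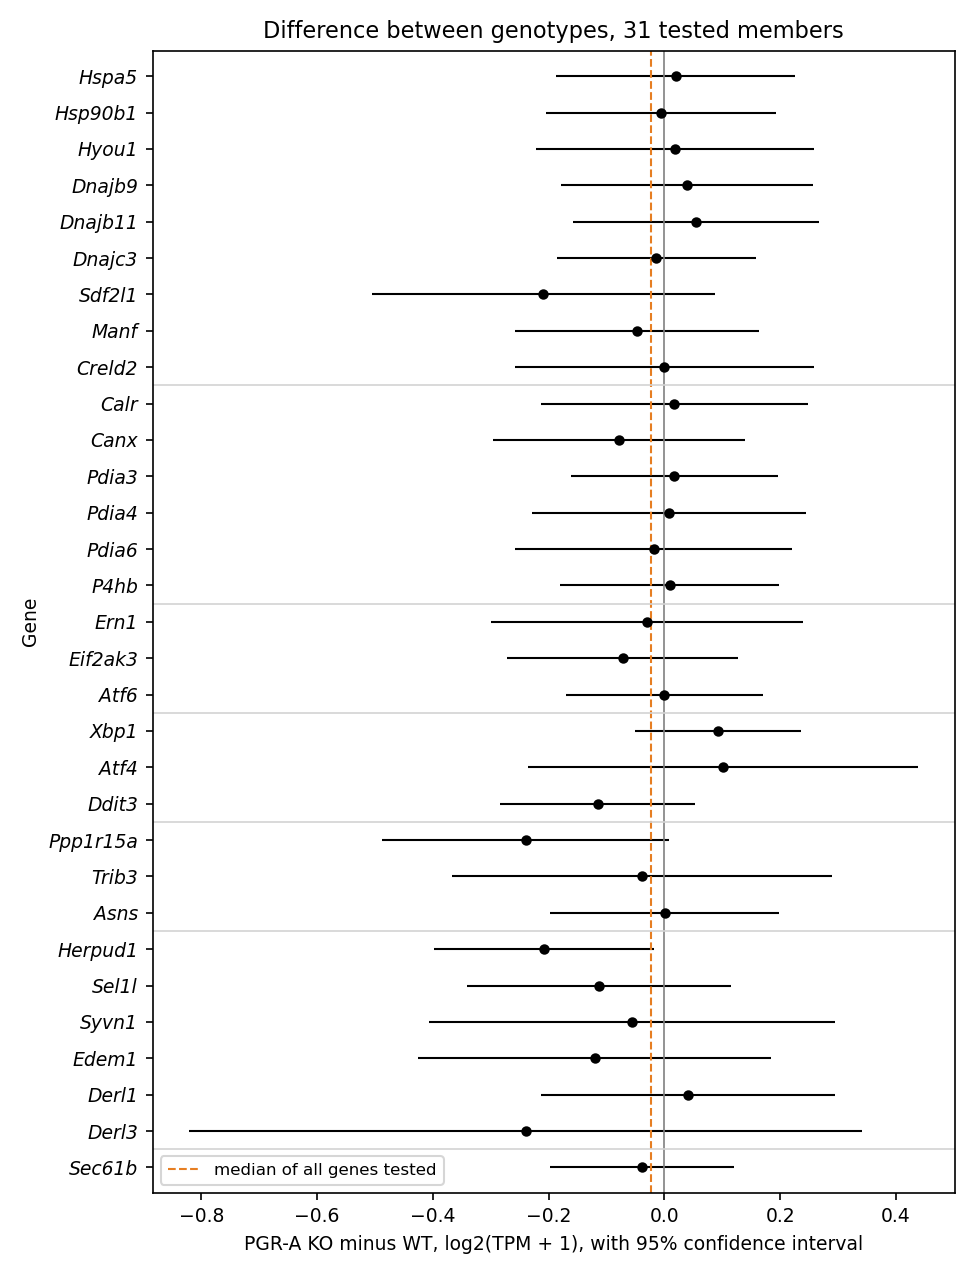
Difference between PGR-A KO and WT on the log2(TPM + 1) scale (points) with its 95% confidence interval from limma (lines) for the 31 tested genes, grouped by role. Herpud1 has the only interval that does not reach 0, Derl3 has the widest, and the dashed line marks the median of all genes tested, -0.023.

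The ER chaperones of the Hsp70 and Hsp90 classes and their partners were 9 genes, with 5 higher and 4 lower in PGR-A KO, a median log2 difference of 0.00 and 0 past the threshold. They made up 0.320% ± 0.0299 of all TPM in PGR-A KO and 0.319% ± 0.0144 in WT (SD, n = 4 each). Hspa5 (chromosome 2, 34771970 to 34777547, plus strand, mm10) encodes BiP, the ER Hsp70 that holds unfolded chains and keeps the sensors inactive. It had 1143, 1336, 1119 and 1068 TPM in PGR-A KO and 1149.5, 1107, 1247 and 1089.9 TPM in WT. PGR-A KO replicates 2 and 4 were the highest and lowest of the 8, with all WT libraries between them. The log2 difference was 0.02 (95% interval -0.19 to 0.23, SE 0.09), with an adjusted p of 0.977 in limma. Without PGR-A KO replicate 2 it was -0.048, so no direction is given for Hspa5.

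Hsp90b1, the ER Hsp90 also called GRP94, had 850.0 to 999 TPM in PGR-A KO and 828 to 982 TPM in WT. Hyou1, a large Hsp70-like exchange factor of BiP, had 195 to 259 TPM in PGR-A KO and 188 to 232 TPM in WT. The J-domain partners of BiP spanned lower levels: Dnajb11 averaged 149 ± 18.2 TPM in PGR-A KO and 143 ± 9.36 TPM in WT (SD, n = 4 each), Dnajc3 79.5 ± 6.42 TPM in PGR-A KO and 80.2 ± 4.48 TPM in WT, and Dnajb9 41.4 ± 1.40 TPM in PGR-A KO and 40.5 ± 5.49 TPM in WT. Manf, a secreted protein of the ER lumen that binds BiP, averaged 452 ± 52.1 TPM in PGR-A KO and 465 ± 28.8 TPM in WT (SD, n = 4 each). Creld2, an ER-resident protein induced by stress, averaged 117 ± 15.6 TPM in PGR-A KO and 116 ± 13.1 TPM in WT (SD, n = 4 each). For these 7 genes and Hspa5 the adjusted p in limma was 0.947 or above. PGR-A KO replicate 2 was the highest of the 8 libraries for all of them but Dnajb9, as it was for Hspa5.

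Sdf2l1, which keeps misfolded chains soluble together with BiP and its J-domain partners, was the chaperone gene with the largest difference. On chromosome 16 (17130138 to 17132383, minus strand, mm10), it had 43.0, 54.0, 50.5 and 37.5 TPM in PGR-A KO and 47.4, 47.9, 62.1 and 56.3 TPM in WT. The lowest pair of libraries was PGR-A KO replicates 4 and 1 and the highest pair WT replicates 3 and 4, while replicates 2 and 3 of the knockout lay among the WT values. Between genotypes the log2 difference was -0.21 (95% interval -0.51 to 0.09, SE 0.13), with an adjusted p of 0.827 in limma and an exact permutation p of 0.257. It was -0.11 without PGR-A KO replicate 4 and -0.14 without WT replicate 3.

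The lectin chaperones and disulfide isomerases were 6 genes, 4 higher and 2 lower in PGR-A KO, with a median log2 difference of 0.0084 and 0 past the threshold. They made up 0.336% ± 0.0342 of all TPM in PGR-A KO and 0.335% ± 0.0170 in WT (SD, n = 4 each). Calr (chromosome 8, 84841850 to 84846934, minus strand, mm10) encodes calreticulin, the soluble lectin that holds glycoproteins during folding. It had 886, 1094, 866 and 839 TPM in PGR-A KO and 865, 950.2, 979 and 834 TPM in WT. Only PGR-A KO replicate 2 stood above every WT library. This gave a log2 difference of 0.02 (95% interval -0.21 to 0.25, SE 0.10), with an adjusted p of 0.983 in limma.

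Canx (chromosome 11, 50293961 to 50325673, minus strand, mm10) encodes calnexin, the membrane-bound counterpart of calreticulin. It had 363, 423, 359 and 331 TPM in PGR-A KO and 355, 418, 421 and 362 TPM in WT. The highest values were those of PGR-A KO replicate 2, WT replicate 2 and WT replicate 3, and the other libraries of both genotypes lay below them. Its log2 difference was -0.08 (95% interval -0.30 to 0.14, SE 0.10), with an adjusted p of 0.924 in limma. The isomerases form and reshuffle disulfide bonds: Pdia3 averaged 662 ± 50.7 TPM in PGR-A KO and 653 ± 35.2 TPM in WT, P4hb 619 ± 56.5 TPM in PGR-A KO and 614 ± 34.0 TPM in WT (SD, n = 4 each). Pdia4 averaged 388 ± 50.2 TPM in PGR-A KO and 385 ± 34.0 TPM in WT, and Pdia6 382 ± 39.7 TPM in PGR-A KO and 387 ± 45.8 TPM in WT (SD, n = 4 each). Their 4 means differ between genotypes by less than the SD within either genotype, and the adjusted p was 0.977 or above in limma.

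The 3 sensors had means of 17.5 to 47.5 TPM over the 8 libraries, with 1 higher and 2 lower in PGR-A KO and 0 past the threshold. Ern1 (chromosome 11, 106394650 to 106487852, minus strand, mm10) encodes IRE1 alpha, the kinase and nuclease that splices Xbp1 mRNA. It had 49.9, 52.2, 43.1 and 42.2 TPM in PGR-A KO and 59.0, 43.5, 48.1 and 41.8 TPM in WT. WT replicates 1 and 4 were the highest and the lowest, and all knockout libraries lay between them. The log2 difference was -0.03 (95% interval -0.30 to 0.24, SE 0.12, adjusted p of 0.973 in limma), and it was 0.0013 with quantile normalization, so no direction is given.

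Eif2ak3 (chromosome 6, 70844515 to 70905245, plus strand, mm10) encodes PERK, which phosphorylates eIF2 alpha and slows translation. It had 17.9, 18.2, 15.1 and 16.8 TPM in PGR-A KO and 19.8, 18.1, 17.4 and 16.4 TPM in WT. The lowest library was PGR-A KO replicate 3 and the highest WT replicate 1, with the rest mixed, and the log2 difference was -0.07 (95% interval -0.27 to 0.13, SE 0.09, adjusted p of 0.924 in limma). Atf6 (chromosome 1, 170704674 to 170867771, minus strand, mm10) encodes the sensor whose cleaved part is itself a transcription factor. It had 22.4, 23.3, 19.8 and 21.1 TPM in PGR-A KO and 21.4, 22.3, 22.5 and 20.3 TPM in WT. Atf6 was among the steadiest genes of the set, its highest library 1.18 times its lowest, and its log2 difference was 0.00 (95% interval -0.17 to 0.17, SE 0.08, adjusted p of 1 in limma).

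Of the 3 transcription factor genes, 2 had higher and 1 a lower mean in PGR-A KO, and 0 passed the threshold. Xbp1 (chromosome 11, 5520659 to 5525893, plus strand, mm10) encodes the factor made active by IRE1 splicing, and a gene-level value does not separate the spliced and unspliced mRNA. It had 163, 168, 152 and 159 TPM in PGR-A KO and 162, 144, 149 and 147 TPM in WT. All 4 knockout libraries lay above the 3 lowest WT libraries, and WT replicate 1 lay among the knockout values. Between genotypes the log2 difference was 0.09 (95% interval -0.05 to 0.24, SE 0.06), with an adjusted p of 0.843 in limma and an exact permutation p of 0.0857.

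Atf4 (chromosome 15, 80255184 to 80257541, plus strand, mm10) encodes the factor translated when PERK or another eIF2 alpha kinase is active, and its mRNA level does not show that translation. It had 258, 249, 178 and 223 TPM in PGR-A KO and 271, 199.6, 188 and 189 TPM in WT. PGR-A KO replicate 3 was the lowest of all 8 and WT replicate 1 the highest, and the remaining 3 knockout libraries lay above the remaining 3 WT libraries. With all 8 libraries the log2 difference was 0.10 (95% interval -0.24 to 0.44, SE 0.15), with an adjusted p of 0.936 in limma and an exact permutation p of 0.543. Without PGR-A KO replicate 3 it was 0.21, without WT replicate 1 it was 0.22, and without both it was 0.34, with an adjusted p of 0.0362 in limma. That choice of libraries was made with the data known and removes the lowest knockout and the highest WT value, so the higher level is described and not called.

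Ddit3 (chromosome 10, 127290774 to 127296288, plus strand, mm10) encodes CHOP, the factor linked to cell death under lasting stress. It had 17.0, 15.5, 15.1 and 15.4 TPM in PGR-A KO and 16.4, 18.3, 16.3 and 17.5 TPM in WT. Replicates 2, 3 and 4 of the knockout lay below every WT library and replicate 1 among them. This gave a log2 difference of -0.12 (95% interval -0.28 to 0.05, SE 0.07), with an adjusted p of 0.833 in limma and an exact permutation p of 0.0857. GENCODE M21 lists 2 gene identifiers under this symbol, and how their values were joined is not given.

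The targets of PERK and ATF4 were 4 genes, of which 3 were tested, with 1 higher and 2 lower in PGR-A KO and 0 past the threshold. Ppp1r15a (chromosome 7, 45522916 to 45526268, minus strand, mm10) encodes GADD34, which directs a phosphatase to eIF2 alpha and so restores translation. It had 45.5, 44.7, 36.9 and 40.0 TPM in PGR-A KO and 56.0, 55.0, 43.8 and 44.0 TPM in WT. WT replicates 1 and 2 stood above all others, and PGR-A KO replicates 3 and 4 below all others. Its log2 difference was -0.24 (95% interval -0.49 to 0.01, SE 0.11), with an unadjusted p of 0.0569 and an adjusted p of 0.783 in limma, and an exact permutation p of 0.171.

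Ppp1r15a is also an early response gene of other stresses, so a list of 12 cytosolic heat shock and immediate early genes was set beside it. Of these 12, 3 had a higher and 9 a lower mean in PGR-A KO, with a median log2 difference of -0.31. At an unadjusted p under 0.05 in limma 4 of the 12 were lower, against 5.33% of all genes tested, and 0 passed the adjusted threshold. Their summed level was 2641 to 3225 TPM in PGR-A KO and 2773 to 3708 TPM in WT. The most abundant of them, the cytosolic Hsp70 gene Hspa8, had 1850.3 to 2254 TPM in PGR-A KO and 1739 to 2294 TPM in WT. Hspa1b, an inducible cytosolic Hsp70 with a near-identical copy in Hspa1a that makes its level uncertain, had 11.5, 10.2, 8.27 and 8.26 TPM in PGR-A KO and 40.1, 36.2, 11.7 and 23.8 TPM in WT. The part of this list in the lower values of Ppp1r15a was not tested.

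Asns, asparagine synthetase, averaged 20.6 ± 1.79 TPM in PGR-A KO and 20.6 ± 1.55 TPM in WT (SD, n = 4 each). Trib3, a pseudokinase that curbs ATF4 and CHOP, had 0.807 to 1.49 TPM in PGR-A KO and 0.947 to 1.40 TPM in WT. Chac1, which degrades glutathione, had 0.663, 0.698, 0.914 and 0.991 TPM in PGR-A KO and 0.741, 0.590, 0.759 and 0.714 TPM in WT. All 8 Chac1 values were under 1 TPM, and the exact permutation p was 0.286. All 3 genes carry the amino acid response element in the promoter window, and none of them differed past the threshold in the test it entered.

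ER-associated degradation, which draws misfolded proteins back to the cytosol, was the group with the most lower means: 5 of its 6 genes were lower in PGR-A KO and 1 higher, with a median log2 difference of -0.12. None passed the threshold. Herpud1 (chromosome 8, 94386438 to 94395377, plus strand, mm10) encodes a membrane protein that organizes the degradation complex and is itself a strong target of the response. It had 38.9, 41.9, 35.4 and 36.4 TPM in PGR-A KO and 43.2, 49.2, 44.6 and 40.0 TPM in WT. PGR-A KO replicate 2 overlapped with WT replicate 4, and the other 3 knockout libraries lay below every WT library. The log2 difference was -0.21 (95% interval -0.40 to -0.02, SE 0.08), with an unadjusted p of 0.0358, an adjusted p of 0.783 in limma and an exact permutation p of 0.0571. Its difference was negative under each alternative run, from -0.25 to -0.16, though these runs share most of their libraries. The unadjusted p in limma was under 0.05 in 13 of the 19 alternatives and was 0.0964 without WT replicate 2.

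Sel1l, the scaffold of the main ubiquitin ligase of this route, averaged 64.7 ± 8.09 TPM in PGR-A KO and 69.8 ± 5.96 TPM in WT (SD, n = 4 each). Syvn1, the ligase HRD1 itself, averaged 41.1 ± 6.46 TPM in PGR-A KO and 43.0 ± 9.03 TPM in WT (SD, n = 4 each). Edem1, which marks glycoproteins for removal, averaged 39.5 ± 4.80 TPM in PGR-A KO and 43.3 ± 8.02 TPM in WT (SD, n = 4 each). For both Syvn1 and Edem1 the highest value was in WT replicate 1, at 56.0 and 54.2 TPM, and the lowest in PGR-A KO replicate 3, at 33.0 and 35.3 TPM. Derl1, a channel component of the retrotranslocation complex, was the gene of this group with a higher mean in the knockout, 90.0 ± 13.5 TPM against 86.9 ± 7.11 TPM in WT (SD, n = 4 each).

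Derl3 (chromosome 10, 75893413 to 75895941, plus strand, mm10), the derlin typical of secretory cells, varied more between libraries than any other tested gene of the set. It had 86.0, 116, 172 and 89.7 TPM in PGR-A KO and 96.3, 111, 186 and 152 TPM in WT. Replicate 3 was the highest in both genotypes, followed by WT replicate 4, and replicates 1 and 4 of the knockout were the lowest, followed by WT replicate 1. The highest library was 2.16 times the lowest, against a median of 1.32 over the 32 genes and 1.34 over the 8991 tested genes with a mean of at least 10 TPM. Between genotypes the log2 difference was -0.24 (95% interval -0.82 to 0.34, SE 0.26), with an adjusted p of 0.909 in limma and an exact permutation p of 0.457. The size of this difference depended on single libraries: it was -0.076 without WT replicate 3, -0.12 without PGR-A KO replicate 1, -0.14 without PGR-A KO replicate 4, -0.39 without WT replicate 1 and -0.45 without PGR-A KO replicate 3. With the same pair left out as for Atf4, a choice made with the data known, it was -0.60, with an adjusted p of 0.101.

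Plasma cells are rich in Derl3, so their markers and those of B cells were read beside it. Of 9 such markers 4 entered the test, with 2 higher and 2 lower in PGR-A KO, and the summed level was 500.3 to 1013 TPM in PGR-A KO and 504 to 822 TPM in WT, mostly from Sdc1, which is not specific to these cells. The 4 that entered the test were Sdc1, Ighm, Igkc and Prdm1, while Jchain, Mzb1, Cd79a, Cd79b and Pou2af1 were under 1 TPM in every library. The part of plasma and B cells in the values of Derl3 was not tested.

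Sec61b (chromosome 4, 47474658 to 47483242, plus strand, mm10), a subunit of the translocon through which chains enter the ER, stood for the entry step. It had 261, 237, 239 and 227 TPM in PGR-A KO and 252, 233, 240.3 and 265 TPM in WT. The values of both genotypes were interleaved, the highest library 1.17 times the lowest. This gave a log2 difference of -0.04 (95% interval -0.20 to 0.12, SE 0.07), with an adjusted p of 0.950 in limma.

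**Figure D3:**
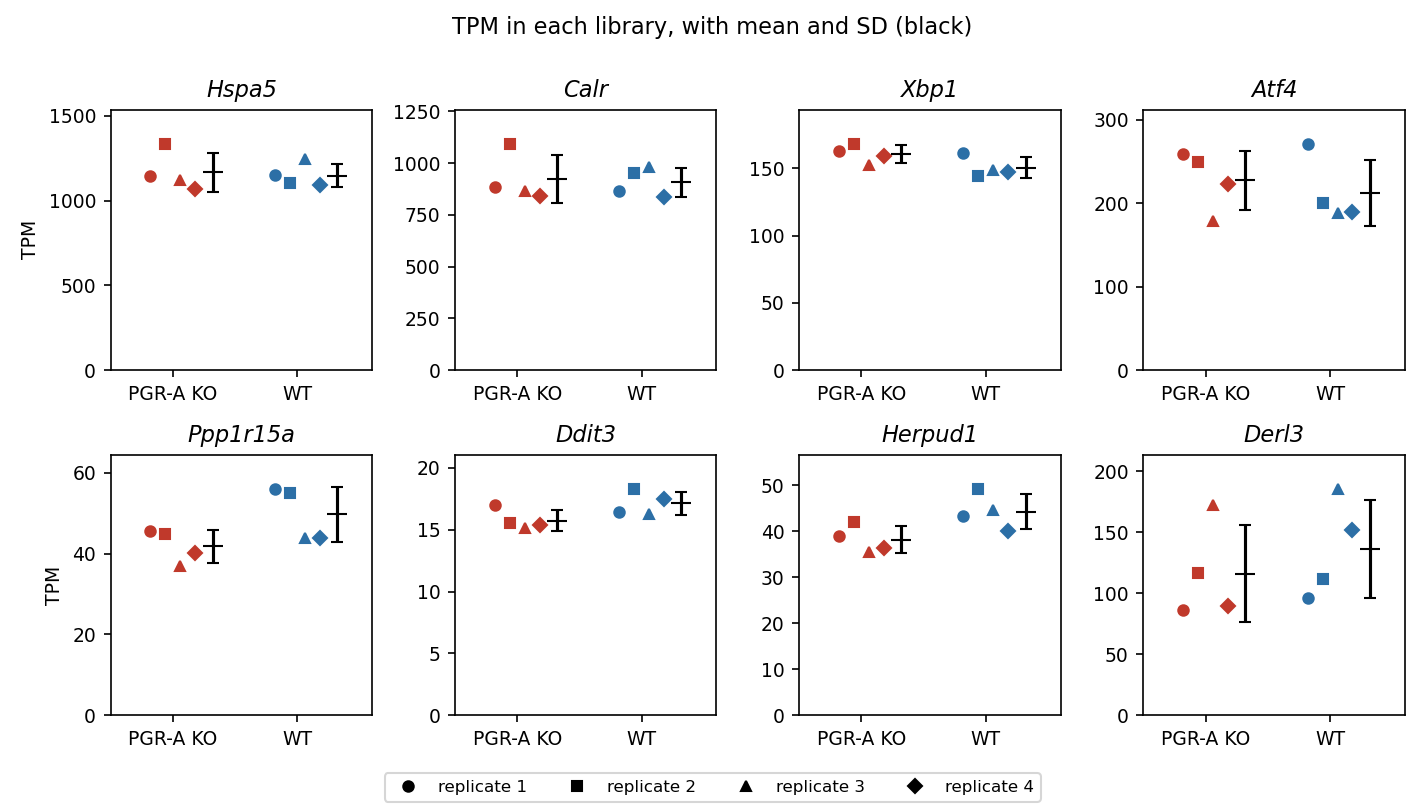
TPM of 8 genes in each of 4 PGR-A KO libraries (red) and 4 WT libraries (blue), with the replicate number given by the marker shape and the mean and SD in black. PGR-A KO replicate 2 is the highest library for Hspa5 and Calr, WT replicate 1 for Atf4 and Ppp1r15a, and WT replicate 3 for Derl3.

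The highest and the lowest libraries were found in both genotypes. PGR-A KO replicate 2 was the highest of the 8 libraries for 16 of the 32 genes, among them 7 of the 9 chaperones and 5 of the 6 lectins and isomerases. PGR-A KO replicate 3 was the lowest for 13 of the 32, among them 5 of the 6 degradation genes, and PGR-A KO replicate 4 for 8. The remaining extremes lay mostly in the wild type, with WT replicate 1 highest for 6 genes and WT replicate 2 lowest for 6. How many of all genes tested were highest or lowest in each library was not counted, here or below. These counts are therefore not read as particular to the 32 genes. PGR-A KO replicate 2 also had the highest median over all genes tested, as given below.

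**Figure D4:**
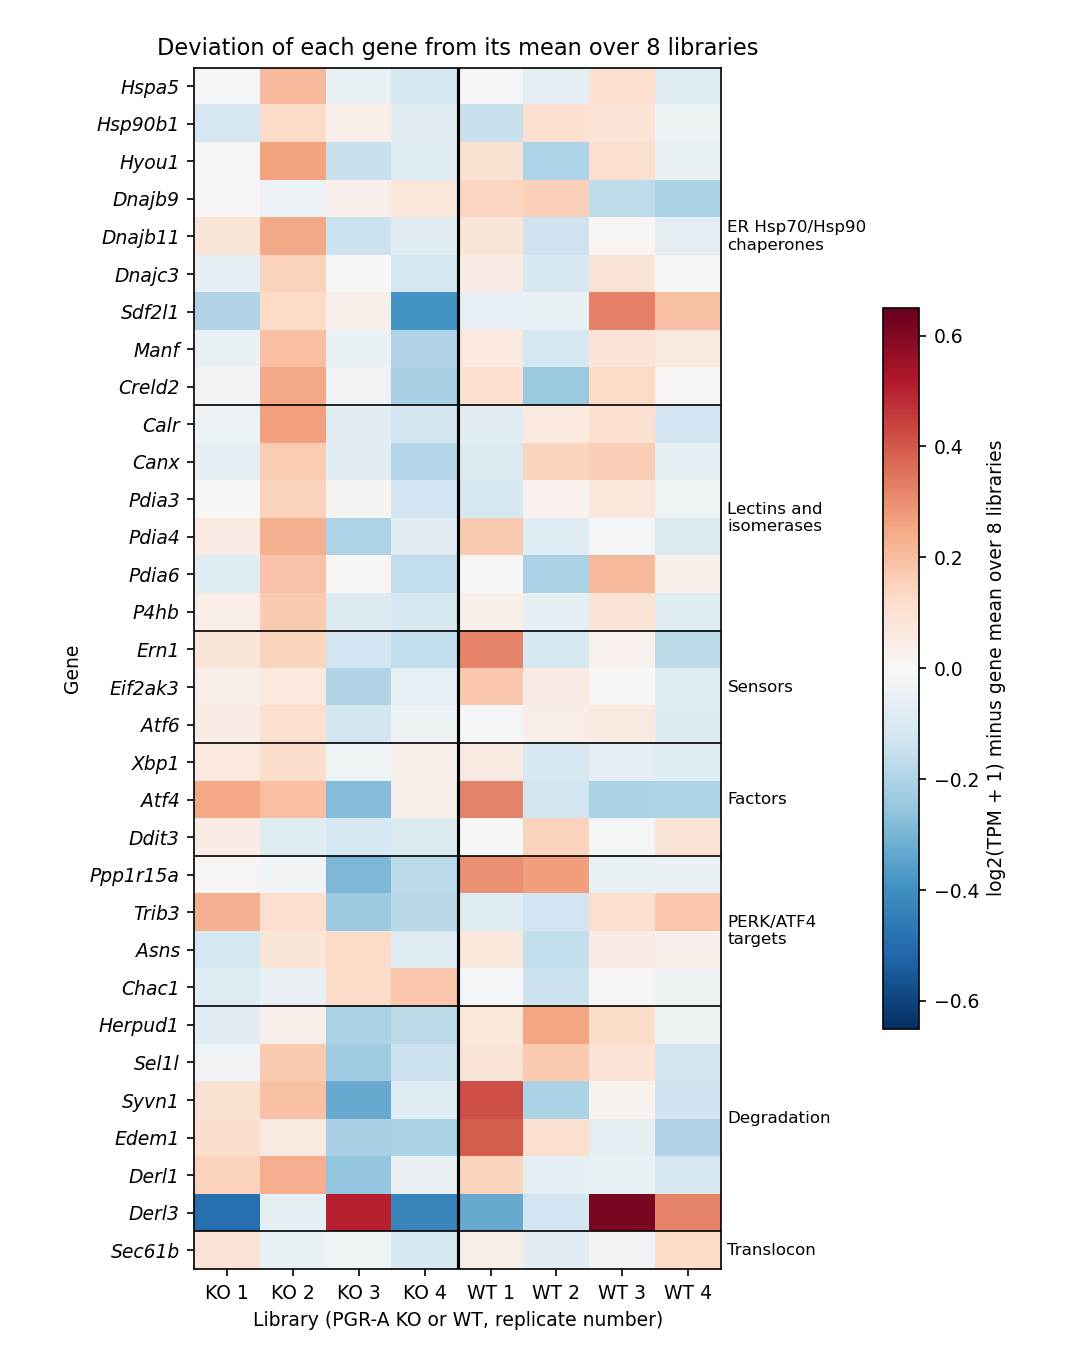
Deviation of each of the 32 genes (rows, grouped by role) from its own mean over 8 libraries on the log2(TPM + 1) scale, with the PGR-A KO libraries left of the black line and the WT libraries right of it. Most chaperones and isomerases are highest in PGR-A KO replicate 2, most degradation genes are lowest in PGR-A KO replicate 3, and Derl3 is high in PGR-A KO replicate 3, where the other degradation genes are lowest.

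Part of this order is shared with all genes of a library. The median deviation of the 31 tested genes from their own means was 0.0061, 0.14, -0.095 and -0.11 log2 units in PGR-A KO and 0.063, -0.066, 0.075 and -0.060 in WT. Over all genes tested it was -0.011, 0.063, -0.044 and -0.074 in PGR-A KO and 0.018, -0.018, 0.059 and -0.0036 in WT. In 7 of the 8 libraries both medians had the same sign, with PGR-A KO replicate 1 as the exception, and in each of those 7 the 31 genes lay farther from 0. After TMM scaling PGR-A KO replicate 2 was still the highest for 11 of the 31 genes, with a median deviation of 0.081.

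Transcripts of the mitochondrial genome took 21.4%, 21.0%, 26.4% and 26.5% of TPM in PGR-A KO and 20.9%, 24.4%, 20.9% and 24.1% in WT, and TPM are shares of a fixed total. The 4 libraries with the lowest mitochondrial share, replicates 1 and 2 of the knockout with replicates 1 and 3 of the wild type, were the 4 whose median over the 31 genes lay above 0. With totals taken without the 37 mitochondrial genes, the medians were -0.027, 0.11, -0.034 and -0.050 in PGR-A KO and 0.021, -0.045, 0.031 and -0.044 in WT. The second knockout library then remained the one with the highest median, and was the highest for 12 of the 31 genes.

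**Figure D5:**
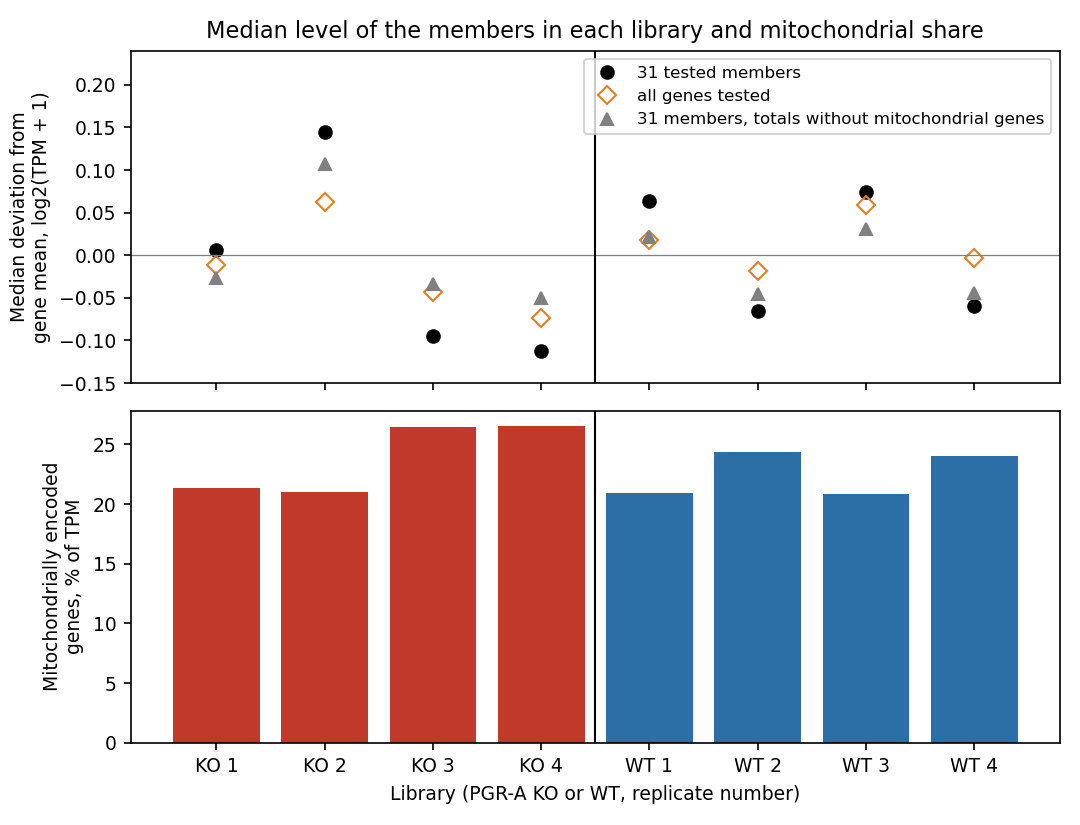
Upper panel, median deviation from each gene's mean on the log2(TPM + 1) scale per library, for the 31 tested genes (black), all genes tested (open diamonds) and the 31 genes with totals without mitochondrial genes (grey triangles). Lower panel, percent of TPM from mitochondrial genes, which is 20.9% to 21.4% in the 4 libraries with black points above 0 and 24.1% to 26.5% in the others.

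A few genes had another order. Ovulatory response genes, raised in granulosa cells by the hormone surge, were read as a list of 16. The list includes the targeted gene Pgr, which had its lowest p, and Star, its most abundant gene, which is also a theca marker below. All 16 had a higher mean in PGR-A KO, against 42.6% of all genes tested, with a median log2 difference of 0.33. At an unadjusted p under 0.05 in limma 2 were higher, against 0.974% of all genes tested, and 0 passed the adjusted threshold. Their sum was 3015, 2504, 1309.8 and 2489 TPM in PGR-A KO and 3090.5, 1966, 1514 and 1429 TPM in WT. Its 4 highest libraries, replicates 1, 2 and 4 of the knockout with WT replicate 1, were also the 4 highest for Xbp1, Atf4 and Derl1, and for the sum of the other ATF4 and CHOP arm genes. For Derl1 the fourth highest library, PGR-A KO replicate 4, stood only 0.0143 TPM above WT replicate 3. The same 4 libraries were highest for 12.6% of all genes tested, against 3 of the 31 here (9.68%), a share near that of all genes. These 4 libraries were the 4 lowest for none of the 32 genes. The comparison describes an order of 8 libraries, and the part of the ovulatory response in the values of Xbp1, Atf4 and Derl1 was not tested.

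Genes with and without an ERSE in the promoter window are given side by side. The 9 genes with the element had a median level of 379 TPM and a median log2 difference of -0.014, while the 19 other genes with a promoter had a median level of 47.5 TPM, and the 18 of them that were tested a median log2 difference of -0.034. The 19 include Herpud1 and Dnajb11, which hold the related ERSE-II. PGR-A KO replicate 2 was the highest library for 6 of the 9 and for 6 of the 19.

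Further genes of the pathway were read from lists beyond the 32. Of 112 such genes, 110 were tested and 0 passed the adjusted threshold in limma. An unadjusted p under 0.05 was found for 3 of the 110, against 6.31% of all genes tested. The mean was higher in PGR-A KO for 47 and lower for 63, where 42.6% of all genes tested were higher. Their median log2 difference was -0.02. Among 22 other folding genes 9 were higher and 13 lower, with the lowest p for Uggt2, a relative of the glucosyltransferase that checks glycoprotein folding. It averaged 7.02 ± 1.24 TPM in PGR-A KO and 9.16 ± 1.98 TPM in WT (SD, n = 4 each), with overlapping groups and an adjusted p of 0.795 in limma. Among 18 other degradation genes 5 were higher and 13 lower. Os9, a lectin that delivers misfolded glycoproteins to the Sel1l complex, had 84.0, 92.4, 87.2 and 81.6 TPM in PGR-A KO and 90.4, 97.5, 106 and 92.3 TPM in WT, with an adjusted p of 0.783. Its groups overlapped only through PGR-A KO replicate 2, as for Herpud1. Among 20 other sensors and regulators 9 were higher and 11 lower, led by Creb3l2, an ER-bound factor of secretory cells, with 56.8, 67.8, 61.2 and 56.7 TPM in PGR-A KO and 62.0, 78.7, 76.2 and 66.6 TPM in WT (adjusted p of 0.783).

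The 22 other genes of the ATF4 and CHOP arm were the list with more higher than lower means, 14 against 8. Nupr1, a small stress-induced nuclear protein, had 257, 205, 187 and 199 TPM in PGR-A KO and 207, 142, 165 and 169 TPM in WT. Its log2 difference was 0.31 (95% interval 0.02 to 0.61), with an unadjusted p of 0.0407 and an adjusted p of 0.783 in limma. Slc3a2, the heavy chain of amino acid transporters and the most abundant of the list, had 849, 832, 455 and 691 TPM in PGR-A KO and 945, 563, 572 and 542 TPM in WT. As for Atf4, WT replicate 1 was the highest library and PGR-A KO replicate 3 the lowest. Ero1a, an oxidase of the isomerases, belongs to both this list and that of the other folding genes.

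Among 29 other translocon and signal peptide genes 11 were higher and 18 lower in PGR-A KO. Sec61g, the smallest translocon subunit, had 35.0, 33.4, 31.1 and 34.0 TPM in PGR-A KO and 41.8, 38.1, 40.0 and 41.2 TPM in WT, with no overlap between the groups. Its log2 difference was -0.27 (95% interval -0.41 to -0.12), with an unadjusted p of 0.00283 and an adjusted p of 0.570 in limma. The exact permutation p was 0.0286, the smallest this design allows. Its value is uncertain, since the transcript of Gm10177, listed at up to 506 TPM, matches Sec61g at 100% over 420 bases, and how reads were shared between them is not given. For the partner subunits Sec61b and Sec61a1 the groups overlapped, and Sec61a1 averaged 184 ± 22.8 TPM in PGR-A KO and 187 ± 16.9 TPM in WT (SD, n = 4 each).

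Markers of ovarian and blood cells were read beside these groups, each list named with its most abundant gene. All 12 oocyte markers, led by Gdf9, had higher means in PGR-A KO, and their sum was 782 to 1397 TPM in PGR-A KO and 570.0 to 1074 TPM in WT. All 5 erythroid markers, led by Hbb-bs, had higher mean log2 values in PGR-A KO, and their sum was 3660.5 to 6318 TPM in PGR-A KO and 1732 to 11369.5 TPM in WT. Of the 12 granulosa markers, led by Inha, 2 were higher and 10 lower, with a sum of 5038 to 6950.1 TPM in PGR-A KO and 5908 to 8678 TPM in WT. Of the 8 tested macrophage markers, led by Lyz2, 1 was higher and 7 lower, with a sum over all 9 of 53.8 to 112 TPM in PGR-A KO and 83.9 to 113 TPM in WT. The theca markers, led by Hsd3b1, and the stromal markers, led by Col3a1, were each 3 higher and 4 lower. The theca markers summed to 1910.3 to 3226 TPM in PGR-A KO and 2544 to 4453 TPM in WT, and the stromal markers to 108 to 155 TPM in PGR-A KO and 108 to 133 TPM in WT. The endothelial markers, led by Cdh5, were 2 higher and 5 lower in PGR-A KO and summed to 16.8 to 30.3 TPM in PGR-A KO and 22.0 to 45.0 TPM in WT. All 8 surface epithelium markers, led by Krt8, were lower in PGR-A KO, 1 of them at an unadjusted p under 0.05, and summed to 87.1 to 91.5 TPM in PGR-A KO and 83.2 to 119 TPM in WT. Tested were 12 granulosa, 12 oocyte, 8 macrophage and 8 surface epithelium markers. There were 7 each for theca, stroma and endothelium, 5 for erythroid cells, and 4 for plasma and B cells. Over all these lists 0 markers passed the adjusted threshold in limma and 5 had an unadjusted p under 0.05. Of all genes tested, 6.31% had an unadjusted p under 0.05 and 42.6% had a higher mean in PGR-A KO. The part of these cells in the levels of the 32 genes was not tested.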

How the data were processed

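Granulosa cell RNA was, per the labels, extracted with a Monarch kit, made into stranded TruSeq mRNA libraries and sequenced in pairs on a NovaSeq instrument. The authors deposited 1 table of TPM for all 8 libraries, each column summing to 994519 to 997022. FastQC, Salmon, limma, edgeR and mm10 are named by the submitters' processing notes, with no versions or roles. Which annotation was used, how transcripts were summed and whether strand was used is not given. Without counts, no count test and no counting interval could be given.

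Each gene was tested in limma 3.58.1 (R 4.3.3, intensity trend, no covariate) on log2 of TPM plus a pseudocount of 1, a scale that understates differences of low genes. Genes needed 1 TPM in 4 or more libraries, which 14472 passed. Adjustment was by Benjamini-Hochberg over these genes, 2-sided, at 0.05. For single genes all 70 assignments of libraries were enumerated in an exact 2-sided permutation test, which can give no p below 0.0286. The procedure was tested on simulated data with independent noise for each gene and with changes larger than those of the tested members. That simulation does not cover changes as small as these or shifts shared by a whole library.

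The settings varied were the pseudocount (0.1, 5), the filter (none, 5 TPM), TMM factors (own code in R, used only to scale TPM), quantile normalization, limma without trend or with robust variances, a replicate block and each library left out. Leaving out a pair of libraries, and totals without mitochondrial genes, were added with the data known. The members and lists were chosen with earlier results of these data known. Described in full are the most abundant gene and the gene of lowest p in each role, the sensors and the factors. Other pathway lists are shown by their gene of lowest p, and marker lists by their most abundant gene. Hspa1b, Slc3a2, Sec61a1 and the plasma cell markers other than Sdc1 were named after their values were seen.

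Positions are from GENCODE M21 (mm10) and promoters from RefSeq (GRCm38.p6). Copies were searched by BLASTN 2.17.0, at 95% identity over 100 bases or more. Those of Derl1, Hsp90b1, Eif2ak3, Manf and Sec61b were each under 1% of the gene's own level. Manf overlaps Dcaf1 (21.0 to 27.4 TPM) and Rbm15b (23.2 to 32.3 TPM), Syvn1 overlaps Mrpl49 (24.5 to 31.9 TPM) and Ppp1r15a overlaps Tulp2 (up to 8.83 TPM). Rbm15b lies on the strand of Manf, so strand would not part their reads, and the other pairs lie on opposite strands and may share reads if strand was not used.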

Additional observations from a re-analysis of the deposited data

Results flagged for a closer look

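Within the 4 libraries of a genotype, a gene was listed when its highest or lowest library stood apart from the nearest of the others by more than Dixon's 95% critical share of the range for 4 samples. Of 64 groups, 32 genes in 2 genotypes, 2 were listed, and chance alone lists about 1 in 20, or 3.2. Atf4 stood apart in WT replicate 1, at 271 TPM, with the other WT libraries at 188 to 199.6 TPM. Manf stood apart in WT replicate 2, at 422 TPM, with the other WT libraries at 476 to 485 TPM. Both libraries fell within or near the PGR-A KO range, which was 178 to 258 TPM for Atf4 and 398 to 523 TPM for Manf.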

How the results depend on the processing

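None of the 31 tested genes passed the adjusted threshold with all libraries or under any setting planned, including each library left out (0 to 0). In the added fit that leaves out PGR-A KO replicate 3, together with WT replicate 1, 1 passed (Atf4), with 9 of the other pathway genes and 1131 of all genes. The count of all genes past the threshold was 2, with 1 at a pseudocount of 5 TPM and 0 to 6 with 1 library left out. The count of the 31 genes with a higher mean in PGR-A KO was 14, and 3 to 20 with 1 library left out, with 3 without PGR-A KO replicate 2 and 9 without WT replicate 4. At an unadjusted p under 0.05 the count was 1, with 2 under quantile normalization, the replicate block and totals without mitochondrial genes, 0 to 2 with 1 library left out, and 3 without the pair of libraries.

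Differences near 0 changed sign. With 1 library left out, Hspa5 ran from -0.048 to 0.060, Calr from -0.068 to 0.060, Ern1 from -0.092 to 0.071 and Atf6 from -0.034 to 0.040. Ern1 was 0.0013 with quantile normalization and 0.11 without the pair of libraries, where Eif2ak3 was 0.028. Over all settings Atf4 ran from 0.035 to 0.34, with adjusted p-values from 0.0362 to 1. The other 8 genes described in full kept their direction and did not pass the adjusted threshold in each of 19 alternatives. Their size moved by over 1.5 times with 1 library left out for Sdf2l1 (-0.29 to -0.11), Derl3 (-0.45 to -0.076), Canx (-0.15 to -0.028) and Sec61b (-0.077 to -0.0044), as it did for Eif2ak3 (-0.11 to -0.019). The causes were not tested.

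Deviations of same-numbered libraries correlated at 0.36, -0.11, 0.39 and -0.29, and those of differently numbered libraries at -0.55 to 0.43. Whether replicate numbers mark pairs cannot be told from these values. With the replicate block 0 of the 31 genes and 2 of all genes passed. Under this block the limma p of Ppp1r15a was 0.0120 unadjusted and 0.401 adjusted. That of Herpud1 was 0.0251 unadjusted and 0.451 adjusted. Depth is unknown, so counting error of low genes such as Chac1 and Trib3 cannot be given.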
